A study of Mus musculus with 5 samples.

Results

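The 39 genes described here encode apolipoproteins and the proteins that load, carry, take up and store lipid. They were taken by symbol from a table of 23997 rows, and all 39 were found. Whole kidneys of mice aged 8 weeks had been sequenced in 5 libraries, 3 from uninduced controls (control 0, 1 and 2) and 2 labelled with the genotype Pkd1 knockout (knockout 0 and 1). The sample titles call the mutants SKO and the series' design text PkdTKO. Which alleles these names stand for, which promoter or agent drives the induction, and whether the controls carry the same alleles without it, the labels leave unstated. The labels do not say that each library is a separate animal, so p-values cover the spread among these samples alone, and that spread may be technical.

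Apolipoproteins coat the fat particles of plasma and steer them to lipases and receptors. Lipoprotein lipase at the vessel wall frees fatty acids, CD36 helps to bring them into cells, fatty acid binding proteins carry them through the cytosol, and perilipins and CIDE proteins coat the droplets in which they are stored as triglyceride. The proximal tubule of the kidney lives largely on fatty acid oxidation, and several genes best known from liver and intestine are also transcribed there. All levels below are FPKM (fragment counts divided by transcript length and by library size) as deposited by the authors, so levels of different genes can be compared per length. Differences are on the scale log2(FPKM + 1), which understates the change of low genes, and are knockout minus control.

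The libraries differed in more than the labelled genotype. Xist, expressed from the inactive X chromosome of females, reached at most 0.0275 FPKM in any control library, against 30.8 for knockout 0 and 80.3 for knockout 1. Mean Y-linked expression was 39.1% (knockout 0) and 0.0234% (knockout 1) of the control level, so sex and genotype cannot be told apart in any comparison below. Knockout 0 thus held both Xist and Y-linked RNA, and the labels do not say whether it pools animals. Havcr1, the tubule injury marker KIM-1, was at 0.718 to 1.12 over the controls, against 137 for knockout 0 and 0.593 for knockout 1. Pkd1 measured 3.22, 3.51 and 3.49 FPKM across controls 0 to 2, against 2.72 for knockout 0 and 3.60 for knockout 1, which settles the label of neither knockout library. The low values fell on steps that put the libraries at roughly 90400000 fragments (knockout 0) to 213000000 (knockout 1), with the controls between 108000000 and 175000000. No gene of the 39 was listed at 0 in any library.

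Of the 39 genes 34 had a mean FPKM of at least 1 and were tested, and 5 passed. Fabp1, Apoe and Mttp rose, and Apoa4 and Apoc3 fell (limma on log2(FPKM + 1), Benjamini-Hochberg adjusted p under 0.05 over all 12640 tested genes). These 5 are 14.7% of the tested lipid genes, where 6.34% of all tested genes passed, 2.73% higher and 3.62% lower. Over all genes tested 345 were higher and 457 lower, and with every library rescaled to a common sum (TPM) 445 were higher and 260 lower. The lipid genes had a median log2 difference of -0.18, against -0.02 over all tested genes. At an unadjusted p under 0.05 there were 13 of the 34, against 29.1% of all tested genes. Knockout and control values did not overlap in 19 of the 34, 9 above the controls and 10 below, where 48.2% of all tested genes did not overlap (21.9% above, 26.3% below). The calls depended on the controls used: without control 0 and without control 2 limma called 0 of the lipid genes, where 11 and 11 had an unadjusted p under 0.05, and without control 1 it called 1, Apoa4. Calls over all 12640 tested genes fell as well, from 802 to 37 without control 0, 36 without control 2 and 155 without control 1. With no filter on low values limma called 0 of the 39 (15 at an unadjusted p under 0.05) and 247 of all 23997 rows. Without knockout 0 it called 9 and without knockout 1 it called 12.

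**Figure D1:**
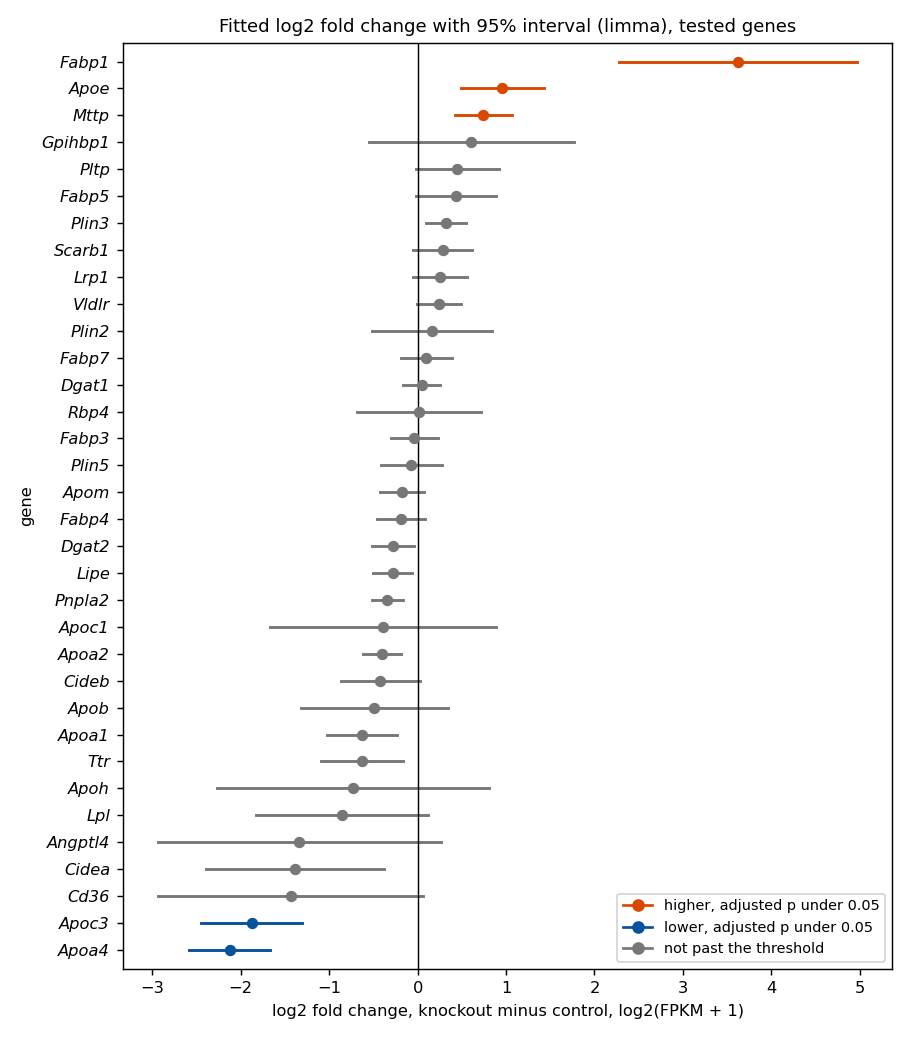
Fitted log2 fold change of the 34 tested lipid genes with its 95% interval (limma, 3 control and 2 knockout libraries), on the log2(FPKM + 1) scale, sorted by size. Fabp1 stands alone at 3.62, Apoa4 and Apoc3 lie at -2.12 and -1.88, and most other intervals include 0.

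The stretches upstream of 4 of the genes that passed are shown because these genes moved in opposite directions, and because the Fabp1 stretch holds a match to the repeat to which PPAR and HNF4 receptors, regulators of fat metabolism, are known to bind. They run from 250 bases before to 50 after a RefSeq start, for Apoe the one farthest upstream of 3 (GRCm38.p6, the assembly called mm10). Capitals mark matches with at most 2 mismatches, on either strand, to AGGTCANAGGTCA, a direct repeat of AGGTCA with 1 base between the copies.
Fabp1, chr6:71199629-71199928, plus strand: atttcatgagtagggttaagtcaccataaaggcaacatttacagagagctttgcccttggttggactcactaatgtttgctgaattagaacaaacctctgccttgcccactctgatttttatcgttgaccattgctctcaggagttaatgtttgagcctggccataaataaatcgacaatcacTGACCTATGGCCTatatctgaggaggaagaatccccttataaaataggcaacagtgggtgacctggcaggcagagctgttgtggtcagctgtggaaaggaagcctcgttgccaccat
Apoa4, chr9:46240594-46240893, plus strand: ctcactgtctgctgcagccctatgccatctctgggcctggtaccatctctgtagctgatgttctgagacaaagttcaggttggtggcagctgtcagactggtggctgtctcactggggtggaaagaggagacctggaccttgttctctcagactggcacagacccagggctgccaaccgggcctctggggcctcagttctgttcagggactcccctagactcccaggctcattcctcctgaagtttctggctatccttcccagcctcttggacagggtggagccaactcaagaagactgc
Apoe, chr7:19699139-19699438, minus strand: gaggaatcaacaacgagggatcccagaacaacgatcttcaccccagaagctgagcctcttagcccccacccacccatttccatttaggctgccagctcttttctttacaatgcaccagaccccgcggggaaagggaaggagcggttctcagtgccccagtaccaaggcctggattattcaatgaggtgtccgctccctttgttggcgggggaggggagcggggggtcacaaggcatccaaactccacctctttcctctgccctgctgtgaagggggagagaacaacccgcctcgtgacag
Mttp, chr3:138143369-138143668, minus strand: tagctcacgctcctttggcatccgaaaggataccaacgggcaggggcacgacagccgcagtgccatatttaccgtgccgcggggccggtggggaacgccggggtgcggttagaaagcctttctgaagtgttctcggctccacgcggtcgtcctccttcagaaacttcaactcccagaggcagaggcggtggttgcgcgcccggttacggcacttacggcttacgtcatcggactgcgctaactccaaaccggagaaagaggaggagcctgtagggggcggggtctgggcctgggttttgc
The Fabp1 match lies on the opposite strand with 1 mismatch, and 54 bases separate it from the start. Of the 32851 promoters in the RefSeq set, 0.554% hold a match with at most 1 mismatch and 3.86% one with at most 2. For 27 of the 39 genes 35 promoters were found, since some genes have several starts. Of these 35, 1 holds a match with at most 1 mismatch (Fabp1) and 4 one with at most 2, the other 3 being shown next. Apoa2 has a further promoter without a match.
Apoa2, 50 bases before the start: TGATCTCTGCCCT
Cd36, 50 bases before the start: TGGCCTCTGACTT
Plin2, 212 bases before the start: GGACCCCTGACCT
All 3 lie on the opposite strand as well. These 4 genes did not move alike, as Fabp1 rose and the other 3 did not pass. A match is a description of letters and not a binding site, and windows without one say nothing of the receptors.

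Apoa4 and Apoc3, neighbours in the apolipoprotein cluster on chromosome 9, fell in both knockout libraries. Apoa4 encodes a protein of chylomicrons and high-density lipoprotein, and Apoc3 a small protein that slows the clearing of triglyceride-rich particles. Apoa4 measured 16.1, 13.5 and 16.01 FPKM across controls 0 to 2, against 2.06 for knockout 0 and 3.51 for knockout 1. Every knockout value was far under every control, at 13.5% and 23.1% of the control mean. The log2 fold change of Apoa4 came to -2.12, with a standard error (SE) of 0.182 and a 95% interval from -2.58 to -1.67 (limma adjusted p = 0.00999). Apoc3, much higher in level, measured 68.8, 54.9 and 58.6 FPKM across controls 0 to 2, against 12.1 for knockout 0 and 20.5 for knockout 1. The knockout values of Apoc3 were 19.9% and 33.7% of the control mean, again lower in knockout 0 than in knockout 1. Its log2 fold change came to -1.88, with an SE of 0.227 and a 95% interval from -2.45 to -1.31 (limma adjusted p = 0.0219). Over all alternative fits the adjusted p ranged from 0.000421 to 0.156 for Apoa4 and from 0.000738 to 0.196 for Apoc3, with the sign kept in each.

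Apoa1, the main protein of high-density lipoprotein and the third expressed gene of this cluster, was also lower in both knockout libraries but did not pass. Apoa1 measured 1.75, 1.54 and 1.56 FPKM across controls 0 to 2, against 0.465 for knockout 0 and 0.962 for knockout 1. Its groups did not overlap, with a log2 difference of -0.63 (SE 0.157, limma adjusted p = 0.0768), and with knockout 0 alone it was called lower (-0.84, adjusted p = 0.00804). The 3 genes lie within 14.88 kb of each other on mm10 chromosome 9, from 46228580 to 46243459, with Apoc3 on the minus strand between Apoa1 and Apoa4 on the plus strand. In each of the 3 the lowest value was that of knockout 0. Apoa5, the cluster's remaining apolipoprotein gene, was at 0.00802 FPKM or less in every library. The genes next to the cluster showed smaller differences, with Sik3 at 12.7 ± 0.254 (SD, n = 3) over the controls, against 14.5 for knockout 0 and 15.9 for knockout 1, and Zpr1 at 13.0 ± 0.152, 12.2 and 11.4. Annotated antisense genes share 34.9% of the exon bases of Apoa4, and the labels do not say whether the authors' counting used strand.

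Apoa2, which encodes the second protein of high-density lipoprotein and lies on chromosome 1, came close to the threshold in the lower direction. Apoa2 measured 9.10, 10.6 and 10.1 FPKM across controls 0 to 2, against 7.14 for knockout 0 and 7.44 for knockout 1. The groups did not overlap, but the log2 difference of -0.40 did not pass (SE 0.0847, limma adjusted p = 0.0557). With only genes of a mean FPKM of at least 5 tested, Apoa2 passed, as did the lipase gene Pnpla2.

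Apoe, the ligand by which remnant particles bind their receptors, was the most abundant apolipoprotein transcript and rose. Apoe measured 114, 172 and 153 FPKM across controls 0 to 2, against 267 for knockout 0 and 297 for knockout 1. Both knockout values were above every control, at 182% and 203% of the control mean. The log2 fold change came to 0.96, with an SE of 0.186 and a 95% interval from 0.49 to 1.43 (limma adjusted p = 0.0471). This call lay close to the threshold, with adjusted p from 0.0407 to 0.205 over the alternative fits. It was lost with no variance trend and with either knockout library alone (0.0743 for knockout 0, 0.0728 for knockout 1), though not when genes listed at 0 were left out as well. Macrophages make much Apoe, and 12 of the 14 macrophage markers measured were above every control in both knockout libraries, where 21.9% of all tested genes were. Of the 11 macrophage markers tested 0 passed by limma. Summed, the macrophage markers stood at 106 to 118 FPKM over the controls, against 475 for knockout 0 and 160 for knockout 1. Clec4f, which marks macrophages of the liver, was listed at 0 in every library, but an exact 0 in these values may be a failed estimate. Apoe was the higher in knockout 1 and the marker sum the higher in knockout 0, and the part of macrophages in the Apoe value was not tested.

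Apoc1, the neighbour of Apoe on chromosome 7 and an inhibitor of lipoprotein uptake, moved in opposite directions in the 2 knockout libraries. Apoc1 measured 4.40, 4.42 and 4.93 FPKM across controls 0 to 2, against 1.27 for knockout 0 and 6.99 for knockout 1. One knockout value thus lay under every control and the other above every control. The fit of both libraries gave -0.39 (SE 0.51, limma adjusted p = 0.653), whereas knockout 0 alone gave -1.30 (adjusted p = 0.00335) and knockout 1 alone 0.52 (adjusted p = 0.0433). In such fits the spread is that of the controls alone, taken to hold for the lone mutant library too. No test compared the mutant libraries with each other. Apoe and Apoc1 span 9.71 kb, from 19689481 to 19699188 on mm10 chromosome 7. The 2 other apolipoprotein genes of that cluster were hardly detected, Apoc2 at 0.031 to 0.426 FPKM over the 5 libraries and Apoc4 at 0.0278 or less.

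The remaining apolipoprotein genes did not pass. Apob, the structural protein of very-low-density lipoprotein, measured 15.6, 6.84 and 11.1 FPKM across controls 0 to 2, against 8.68 for knockout 0 and 6.09 for knockout 1. The controls of Apob spread over more than a 2-fold range and overlapped the knockout values (log2 -0.49, limma adjusted p = 0.374). Apoh, the phospholipid-binding beta-2 glycoprotein I, had 3.63, 1.41 and 2.43 over the controls and 3.03 in knockout 0, and only 0.0257 in knockout 1. That last value rests on roughly 7 fragments, where the other libraries had 295 to 694 (log2 -0.73, limma adjusted p = 0.473, and 0.26 with knockout 0 alone). Apom, which carries sphingosine 1-phosphate, was abundant and nearly level, with 89.5, 84.5 and 92.3 over the controls, against 72.0 for knockout 0 and 85.0 for knockout 1. Its log2 difference was -0.18 (95% interval -0.43 to 0.07, limma adjusted p = 0.286). Apod, an apolipoprotein of glia and other tissues, was too low to be tested, at 0.126 to 0.264 FPKM in the 5 libraries.

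Liver and intestine are the main sources of plasma apolipoproteins. Of 15 hepatocyte markers 11 had a mean of at least 1 FPKM, and of 8 intestinal markers 1 did. Among the lower hepatocyte markers, Ahsg, Cps1, Tat and Hpx reached at most 0.0243, 0.0048, 0.0138 and 0.285 FPKM in any library. The intestinal genes Fabp2 and Lct reached at most 0.0198 and 0.0281, and Sis and Cdx2 were listed at 0 in every library. Such a 0 may be a failed estimate, since the proximal tubule genes Slc34a1 and Lrp2 were listed at 0 as well. The exception on the intestinal list was Vil1, villin of microvilli, which the proximal tubule also has. Vil1 was at 75.3 to 82.9 FPKM over the controls, against 60.1 for knockout 0 and 50.8 for knockout 1, and as the only tested gene of the 8 it fell (log2 -0.50, limma adjusted p = 0.0483). Some of the tested hepatocyte markers did move, and which cells they came from was not tested. Of 11 tested, Alb rose (3.68 ± 0.766 FPKM over the controls, SD, n = 3, against 9.51 and 17.0 for knockout 0 and 1), and Serpina1a and Serpina1c, which have near-identical relatives, fell. Summed, the hepatocyte list stood at 260 to 271 FPKM over the controls, against 178 for knockout 0 and 133 for knockout 1. That sum hides opposite moves. Serpina1d had 182, 157 and 167 across controls 0 to 2, then 9.67 and 72.3 for knockout 0 and 1. Fgg had 5.02, 9.65 and 6.25, then 108 and 5.21, and Fgb 0.608, 0.922 and 0.83, then 12.6 and 3.24. None of these 3 passed. Of the 15 markers 2 lay above every control in both knockout libraries and 6 under, where 21.9% of all tested genes lay above and 26.3% under.

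**Figure D2:**
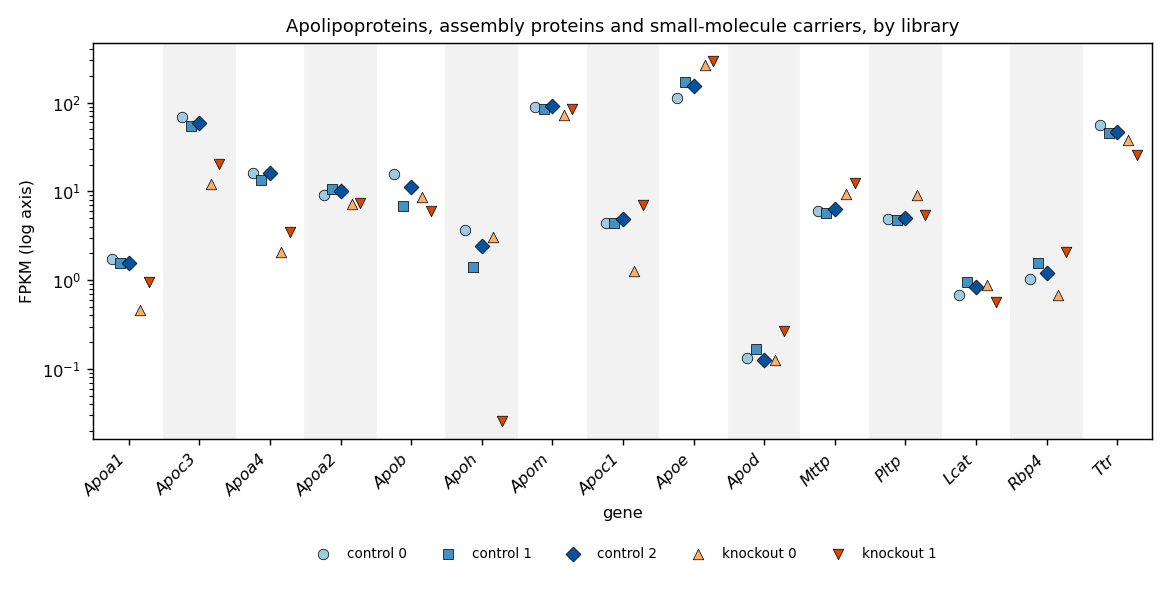
FPKM (log axis) of the apolipoprotein, assembly and carrier genes in each of the 5 libraries. Apoa1, Apoc3 and Apoa4 lie lower in both knockout libraries, Apoe and Mttp higher, Apoc1 and Rbp4 lie on either side of the controls, and the single low point of Apoh is knockout 1.

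Mttp, which encodes the microsomal transfer protein that loads lipid onto apolipoprotein B, rose in both knockout libraries. Mttp measured 5.94, 5.76 and 6.32 FPKM across controls 0 to 2, against 9.27 for knockout 0 and 12.4 for knockout 1. The controls were tight and both knockout values clear of them, at 154% and 206% of the control mean. The log2 fold change came to 0.74, with an SE of 0.127 and a 95% interval from 0.43 to 1.06 (limma adjusted p = 0.0377, range 0.00677 to 0.23 over the alternative fits), and the call was lost after quantile normalization. Apob, the gene of its partner protein, did not pass. Antisense exons of Trmt10a share 7.36% of the exon bases of Mttp. Pltp, which moves phospholipid between lipoproteins, measured 4.86, 4.75 and 5.07 FPKM across controls 0 to 2, against 8.99 for knockout 0 and 5.49 for knockout 1. The rise of Pltp was called with knockout 0 alone (log2 0.76, limma adjusted p = 0.0065) and not over both libraries (0.45, adjusted p = 0.182). Antisense exons of Ctsa, itself at 69.7 to 99.1 FPKM, share 19.3% of the exon bases of Pltp, so its value is uncertain. Lcat, which esterifies cholesterol in plasma, was too low to be tested, at 0.572 to 0.946 FPKM in the 5 libraries.

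Rbp4 and Ttr, which together carry retinol in plasma, did not pass and did not move together. Ttr, transthyretin, measured 55.9, 45.8 and 46.6 FPKM across controls 0 to 2, against 38.2 for knockout 0 and 25.8 for knockout 1. Both knockout values of Ttr were under every control (log2 -0.63, SE 0.185, limma adjusted p = 0.101), and knockout 1 alone gave -0.91 (adjusted p = 0.0389). Rbp4 measured 1.03, 1.56 and 1.19 FPKM across controls 0 to 2, against 0.683 for knockout 0 and 2.08 for knockout 1. The knockout values of Rbp4 lay on either side of the controls, so the fitted difference of 0.02 (95% interval -0.68 to 0.71, limma adjusted p = 0.976) describes neither library.

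Fabp1, the fatty acid binding protein first known from liver, showed the largest change of all 39 genes. Fabp1 measured 0.535, 1.61 and 0.858 FPKM across controls 0 to 2, against 12.04 for knockout 0 and 43.3 for knockout 1. Both knockout libraries were far above every control, at 12.03 times and 43.3 times the control mean, and the controls themselves spread over more than a 2-fold range. The log2 fold change came to 3.62, with an SE of 0.538 and a 95% interval from 2.27 to 4.97 (limma adjusted p = 0.0302, range 0.00272 to 0.17 over the alternative fits). Knockout 1, which held hardly any Y-linked RNA, had the higher Fabp1 level. A list of 5 genes taken as female-biased in kidney summed to 165 to 339 FPKM over the controls, against 366 for knockout 0 and 595 for knockout 1. Of these genes Slc7a12, Abcc3 and Cyp4a14 rose, where 2.73% of all tested genes were called higher. Prlr lay above every control in both knockout libraries without passing. Cyp2a4, also on the list, was not higher. It had 268, 63.0 and 182 FPKM across controls 0 to 2, 97.6 for knockout 0 and 36.0 for knockout 1 (log2 -1.28, limma adjusted p = 0.291). Cyp2a4 made up a large part of the control sums, and whether each listed gene is female-biased in kidney was not tested. The part of these genes in the Fabp1 value was not tested.

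None of the 4 other fatty acid binding proteins passed. Fabp3, the form of heart and muscle, measured 102, 115 and 97.7 FPKM across controls 0 to 2, against 109 for knockout 0 and 95.8 for knockout 1. Fabp4, the form of adipocytes and endothelium, measured 105, 125 and 119.5 FPKM across controls 0 to 2, against 107 for knockout 0 and 96.5 for knockout 1. Both were at over 90 FPKM in every library and were level within their intervals, with log2 differences of -0.04 (95% interval -0.30 to 0.23) and -0.19 (-0.46 to 0.08). Fabp5, the epidermal form, measured 9.02, 13.5 and 11.2 FPKM across controls 0 to 2, against 17.1 for knockout 0 and 13.7 for knockout 1. The margin over the highest control was narrow in knockout 1, and the log2 difference of 0.43 did not pass (SE 0.181, limma adjusted p = 0.186). Fabp7, the brain form, stayed within the control range in both libraries, with 15.2, 19.5 and 17.1 over the controls, against 19.1 for knockout 0 and 17.8 for knockout 1. In knockout 1 Fabp1 thus reached 43.3 FPKM, above Fabp5 and Fabp7 and under Fabp3 and Fabp4, whereas in the controls it was the lowest of the 5.

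**Figure D3:**
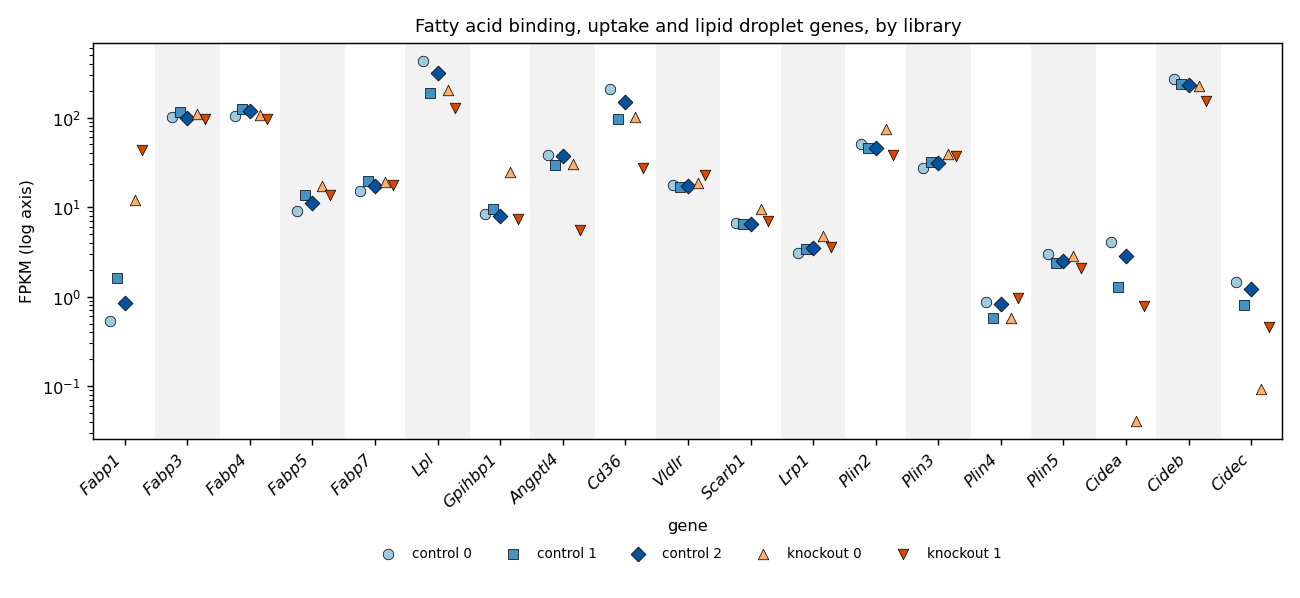
FPKM (log axis) of the fatty acid binding, uptake and lipid droplet genes in each of the 5 libraries. Fabp1 rises from between 0.535 and 1.61 in the controls to 12.04 and 43.3, Fabp3 and Fabp4 are level near 100, and the isolated low points are Cidea and Cidec in knockout 0 and Cd36 and Angptl4 in knockout 1.

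The vessel-wall lipase and its partners did not pass, and each had a different pattern. Lpl, lipoprotein lipase, was on average the most abundant of the 39 over the controls, with 431, 187 and 313 FPKM in control 0, 1 and 2, against 202 for knockout 0 and 129 for knockout 1. Control 1 lay under knockout 0, so the groups overlapped (log2 -0.86, SE 0.387, limma adjusted p = 0.211). Angptl4, a secreted inhibitor of this lipase and a target of PPAR receptors, measured 37.8, 29.6 and 37.6 FPKM across controls 0 to 2, against 30.0 for knockout 0 and 5.47 for knockout 1. The low value of Angptl4 was thus that of knockout 1, at 15.6% of the control mean, and was called with that library alone (log2 -2.47, limma adjusted p = 0.0103) and not over both (-1.34, adjusted p = 0.23). Gpihbp1, which anchors the lipase on capillary endothelium, measured 8.37, 9.45 and 7.98 FPKM across controls 0 to 2, against 24.8 for knockout 0 and 7.26 for knockout 1. Knockout 0 alone gave a log2 difference of 1.43 (limma adjusted p = 0.00429) and both libraries 0.61 (adjusted p = 0.429). Of 14 endothelial markers tested 0 passed by limma. In both knockout libraries 0 of them lay under every control and 4 above, where 26.3% of all tested genes lay under and 21.9% above. In knockout 0 alone 6 lay above every control and 4 under, and in knockout 1 alone these numbers were 9 and 1. The markers summed to 287 to 297 FPKM over the controls, against 315 for knockout 0 and 308 for knockout 1. The part of endothelial cells in the Gpihbp1 value was not tested.

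Among the receptors Cd36 had the widest spread. Cd36, the fatty acid translocase, measured 209, 97.6 and 150 FPKM across controls 0 to 2, against 101 for knockout 0 and 27.5 for knockout 1. Only knockout 1 lay under every control, at 18.1% of the control mean, and the log2 difference of -1.44 did not pass (SE 0.597, 95% interval -2.93 to 0.06, limma adjusted p = 0.184). The 3 lipoprotein receptors each lay above all controls in both mutant libraries, but by little. Vldlr, the very-low-density lipoprotein receptor, measured 17.6, 16.8 and 17.3 FPKM across controls 0 to 2, against 18.6 for knockout 0 and 22.7 for knockout 1. Scarb1, the receptor for high-density lipoprotein, measured 6.65, 6.52 and 6.44 FPKM across controls 0 to 2, against 9.64 for knockout 0 and 6.90 for knockout 1. Lrp1, a receptor for remnants and protease complexes, measured 3.03, 3.44 and 3.46 FPKM across controls 0 to 2, against 4.74 for knockout 0 and 3.61 for knockout 1. Their log2 differences of 0.24, 0.28 and 0.26 did not pass (limma adjusted p = 0.183, 0.228 and 0.227). The larger value was that of knockout 1 for Vldlr and that of knockout 0 for Scarb1 and Lrp1, and each was called with that library alone (adjusted p = 0.0496, 0.0146 and 0.044).

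Genes of triglyceride synthesis and breakdown were lower by small margins or level, and 0 of 4 tested passed by limma, with 3 lower at an unadjusted p under 0.05. Pnpla2, which encodes the lipase that starts the breakdown of stored triglyceride, measured 45.3, 45.5 and 43.2 FPKM across controls 0 to 2, against 36.1 for knockout 0 and 33.9 for knockout 1. Tight controls and a small log2 difference of -0.35 (SE 0.07, 95% interval -0.52 to -0.17) left Pnpla2 just short of the threshold at a limma adjusted p of 0.0523. Lipe, hormone-sensitive lipase, the next enzyme of that pathway, measured 8.20, 6.87 and 7.72 FPKM across controls 0 to 2, against 6.15 for knockout 0 and 5.96 for knockout 1 (log2 -0.28, limma adjusted p = 0.115). Dgat2, one of the enzymes that complete triglyceride, measured 80.7, 83.1 and 87.5 FPKM across controls 0 to 2, against 63.9 for knockout 0 and 74.1 for knockout 1. Its log2 difference of -0.28 did not pass over both libraries (limma adjusted p = 0.126) and was called lower with knockout 0 alone (-0.38, adjusted p = 0.0434). Dgat1, the other such enzyme, was level, with 16.2, 17.3 and 16.2 over the controls, against 18.3 for knockout 0 and 16.02 for knockout 1 (log2 0.05, 95% interval -0.16 to 0.26). Pnpla3, a relative of Pnpla2, was too low to be tested, at 0.611 to 0.88 FPKM in the controls and 0.461 and 0.53 in the knockout libraries.

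The lipid droplet coat held genes that did not move alike, and 0 of 5 tested passed by limma, with Plin3 higher and Cidea lower at an unadjusted p under 0.05. Plin2, the coat protein of most cells, measured 51.1, 45.1 and 46.2 FPKM across controls 0 to 2, against 73.7 for knockout 0 and 38.3 for knockout 1. The knockout values of Plin2 lay on either side of the controls, and knockout 0 alone was called higher (log2 0.63, limma adjusted p = 0.0226), where both libraries gave 0.16 (adjusted p = 0.728). Plin3, a coat protein that also lives in the cytosol, measured 27.5, 32.1 and 31.3 FPKM across controls 0 to 2, against 39.0 for knockout 0 and 37.0 for knockout 1. Both knockout values of Plin3 were above every control, without passing (log2 0.32, SE 0.0904, limma adjusted p = 0.0959). Plin5, the coat protein of oxidative tissues, was level within its interval, at 2.36 to 2.96 FPKM over the controls, against 2.81 for knockout 0 and 2.06 for knockout 1. Plin4 was too low to be tested, at 0.573 to 0.958 FPKM in the 5 libraries. Cideb, the member of the CIDE family known from liver, was the most abundant droplet gene, with 270, 236 and 234 over the controls, against 222 for knockout 0 and 152 for knockout 1. The log2 difference of Cideb was -0.42 (SE 0.178, limma adjusted p = 0.191), and with knockout 1 alone it was called (-0.69, adjusted p = 0.0434). Antisense exons of Nop9, itself at 5.97 to 7.35 FPKM, share 76.3% of the exon bases of Cideb.

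Cidea and Cidec, which fuse lipid droplets in fat cells, were low in the kidney and lowest in knockout 0. Cidea measured 4.07, 1.28 and 2.87 FPKM across controls 0 to 2, against 0.0404 for knockout 0 and 0.778 for knockout 1. The knockout 0 value rests on roughly 4 fragments, and the log2 difference of -1.39 did not pass (SE 0.4, limma adjusted p = 0.0984). Cidec, too low to be tested, measured 1.45, 0.804 and 1.23 FPKM across controls 0 to 2, against 0.0925 for knockout 0 and 0.456 for knockout 1. Fat cell markers did not all move alike. Adipoq measured 2.77, 1.29 and 1.65 FPKM across controls 0 to 2, against 0.0569 for knockout 0 and 0.515 for knockout 1, and Plin1 had 1.32, 0.551 and 1.05, then 0.024 and 0.242. Of the 12 adipocyte markers 7 were under every control in both knockout libraries and 2 above (Pck1 and Lgals12). Over all tested genes 26.3% were under and 21.9% above. Cfd was listed at 0 in every library, which may be a failed estimate. Among 6 tested only Thrsp passed, lower, with 7.79 to 11.6 FPKM over the controls against 2.86 and 3.98 (log2 -1.33, limma adjusted p = 0.0302). All 12 markers summed to 778 to 814 FPKM over the controls, against 859 for knockout 0 and 844 for knockout 1, and most of that sum was Pck1. Without Pck1 and Slc2a4, which the kidney also transcribes, the markers summed to 13.9 to 22.1 FPKM over the controls, against 5.07 for knockout 0 and 8.52 for knockout 1. Thrsp made up the largest part of this smaller sum in the controls. Fewer fat cells in the sample and less RNA per fat cell cannot be told apart in whole tissue, and their part in the Cidea and Cidec values was not tested. Fabp4, which fat cells also express, was at 107 FPKM in knockout 0, within the control range.

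The knockout libraries differed from each other in many of the 39 genes. Both were compared with the same controls, so their differences are given side by side and are not independent. Knockout 0 alone gave 12 calls among the lipid genes, 7 higher and 5 lower, where limma called 20.6% of all tested genes (11.5% higher, 9.09% lower). With knockout 1 alone there were 9 calls, 4 higher and 5 lower, where 8.34% of all tested genes were called (4.09% higher, 4.25% lower). Apoc1, Gpihbp1, Plin2, Rbp4 and Dgat1 lay above every control in one knockout library and under every control in the other, 5 of 34 tested, where 14.3% of all tested genes did so. Apod and Plin4, which were not tested, did so as well. For 3 of these genes the value under the controls lay very close to the lowest control. Dgat1 had 16.02 FPKM in knockout 1 against 16.16, and in knockout 0 Apod had 0.126 against 0.127 and Plin4 0.573 against 0.575. Angptl4, Cd36 and Apoh were lower in knockout 1 by 2.47, 2.36 and 1.72 on the log2 scale, while in knockout 0 they were within the control range.

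**Figure D4:**
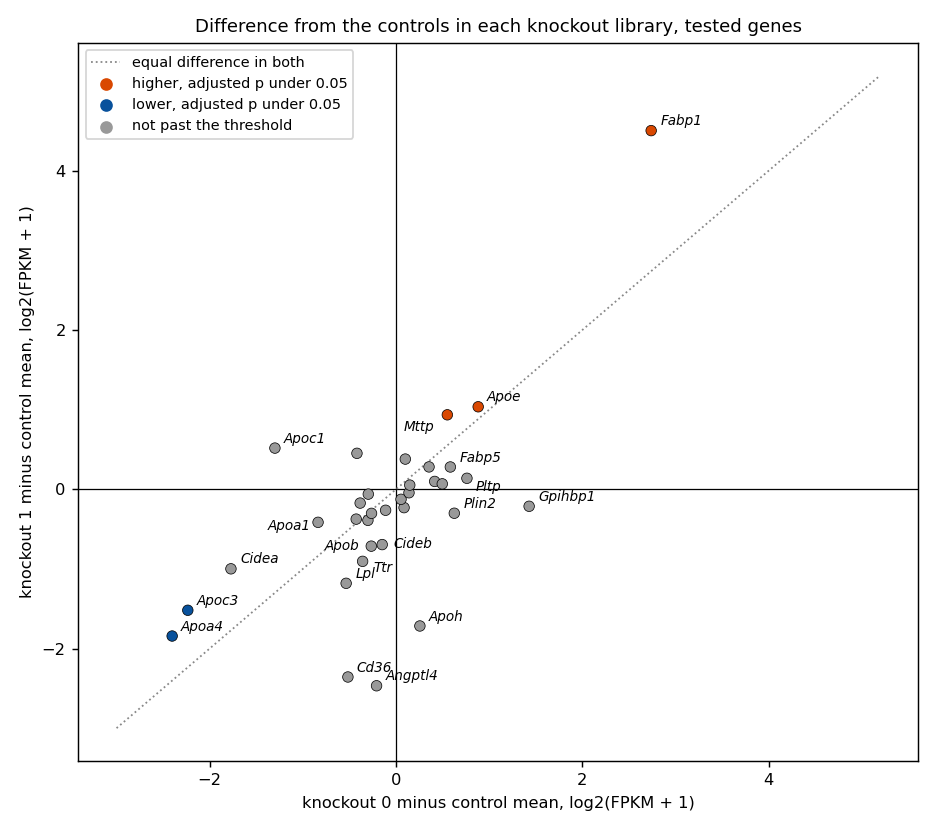
Difference from the control mean on the log2(FPKM + 1) scale in knockout 0 (x axis) and knockout 1 (y axis) for the 34 tested lipid genes; the controls are shared by both axes. Fabp1, Apoe and Mttp lie in the upper right and Apoa4 and Apoc3 in the lower left, while Apoc1 and Gpihbp1 have opposite signs and Angptl4, Cd36 and Apoh are low only on the y axis.

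Some of these genes varied among the controls themselves. Apob, Apoh, Cd36, Lpl, Cidea and Fabp1 had at least a 2-fold range over the 3 controls, 6 of 34 tested, where 1.88% of all tested genes had such a range. In the first 5 of them the order was control 0, then control 2, then control 1, an order found in 28.6% of all tested genes with such a range. Fabp1 had the opposite order. Of 13 tested genes of an androgen-dependent kidney list, 11 stood in that first order, whatever their range. Without regard to range, 24.6% of all tested genes and 14 of the 34 tested lipid genes stood in it. Of the list's 14 genes, 6 lay under every control in knockout 0 and 11 in knockout 1. In both libraries 6 lay under every control, where 26.3% of all tested genes did so. Among those tested Cyp7b1 and Cyp2d9 fell (limma adjusted p = 0.0455 and 0.0294). Cyp4b1 was called higher, listed at 0 in every control and at 1143 and 357 FPKM in knockout 0 and 1, so no fold is given. Timd2 lay above every control in knockout 0 (37.3 FPKM) and under every control in knockout 1 (1.49), and Odc1 had 455 and 295, both within its control range of 212 to 457. The part of androgen response in the spread of these lipid genes was not tested.

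**Figure D5:**
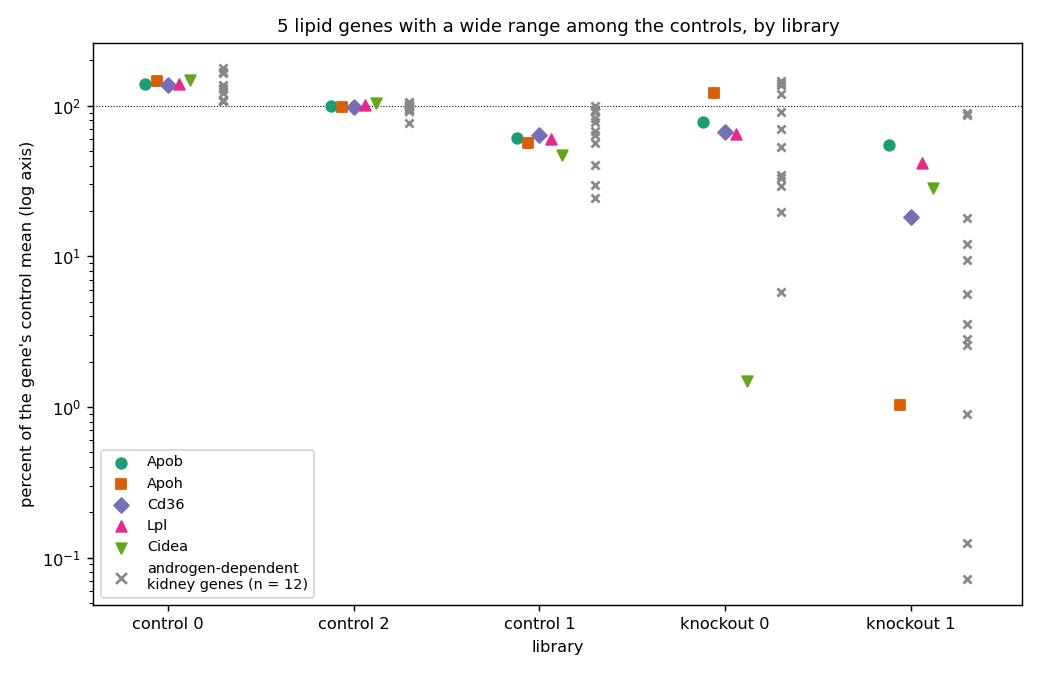
Percent of each gene's control mean (log axis) in each library for the 5 lipid genes with more than a 2-fold range and the order control 0, control 2, control 1, with 12 androgen-dependent kidney genes as crosses. All 5 lipid genes fall from control 0 to control 1, Cidea is lowest in knockout 0, and Apoh, Cd36, Lpl and Apob are lowest in knockout 1.

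Other genes of lipid handling were counted from 6 lists, to be read against the 2.73% of all tested genes called higher and the 3.62% called lower. Each count below is of 0 to 2 genes, so none sets a list apart from that background. Among 12 tested soluble lipoprotein proteins outside the 39, 2 rose and 0 fell, with a median log2 difference of 0.25. Lipa, the acid lipase of lysosomes, was one that rose, and averaged 85.2 ± 4.92 FPKM (SD, n = 3) over the controls, against 149.8 and 131 for knockout 0 and 1 (log2 0.71, limma adjusted p = 0.0258). Of 20 tested lipoprotein receptors and cholesterol exporters 1 rose and 0 fell (median 0.21). Of 11 tested genes of fatty acid uptake and retinol carriage 1 passed, higher, and 0 were called lower (median 0.13). That was Slc27a2, a fatty acid transporter, listed at 0 in every control and at 1204 and 1138 FPKM in knockout 0 and 1, so no fold is given. Slc34a1 and Lrp2, transcribed by every proximal tubule, are listed at 0 in all 5 libraries, so an exact 0 in these values may be a failed estimate.

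In the list of triglyceride synthesis, lipolysis and droplet genes 0 of 30 tested rose and 2 fell (median -0.17). Mogat2, which joins a fatty acid to monoglyceride ahead of the Dgat enzymes, fell, with 19.8 ± 0.889 FPKM (SD, n = 3) over the controls against 5.01 and 6.75 (log2 -1.61, limma adjusted p = 0.00778). Fitm1, which helps droplets to bud from the endoplasmic reticulum, fell from 47.1 ± 2.42 to 27.6 and 30.0. Of 22 tested regulators of lipid genes 0 rose and 2 fell (median -0.14). They were Mlxipl, the sugar-sensing factor ChREBP, from 67.2 ± 3.24 to 49.8 and 50.9, and Klf15, from 59.95 ± 3.55 to 38.9 and 42.3. Ppara and Hnf4a, receptors that bind the repeat searched for above, were at 18.0 ± 0.33 and 205 ± 26.9 in the controls, at 18.1 and 185 in knockout 0, and at 21.2 and 194 in knockout 1. Among 23 tested targets of PPAR-alpha, Cyp4a14 rose from 39.9 ± 5.94 to 104 and 256, Acadvl fell from 165 ± 4.48 to 125 and 127, and 21 did not pass (median -0.19). Cyp4a14 also stands in the female-biased list.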

How the data were processed

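Whole-kidney RNA of 3 control and 2 knockout libraries was measured. Per the labels' protocols, TRIzol was the extraction reagent and an Illumina mRNA kit made each library from 1 µg. The authors deposited FPKM per gene. The submitters' processing notes name bcl2fastq and mm10. Aligner, FPKM program, annotation and strand setting: not given in the sources used here. Of the 23997 rows 27 carry dates in place of symbols and were never named, and 0 value columns were left without a library.

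FPKM are not counts, so no count test was run. The 12640 rows whose mean FPKM reached 1 were tested on log2(FPKM + 1) with limma 3.58.1 in R 4.3.3 (variance trend, two-sided, Benjamini-Hochberg over all rows, threshold 0.05). An exact permutation of 3 and 2 libraries has 0.1 as its smallest p, so it can pass no gene. In 87 tested rows a library was listed at exactly 0, and an alternative left them out. Depth was estimated from the steps of low FPKM in 2170 genes with 1 GENCODE M21 transcript over 1500 bases (80.7% to 86.4% of values within 0.15 of a whole step), and fragment numbers are rough because length was not corrected for fragment size. Promoters came from RefSeq (GRCm38.p6), positions and exon overlaps from GENCODE M21. Python 3.11.15, pandas 2.3.3, numpy 2.4.6 and matplotlib 3.10.9 were used. The fit was also run on simulated data in which both groups had the spread of the controls. That run does not cover the spread between the 2 knockout libraries.

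The genes, lists and tests were chosen with earlier results of these data known. Genes with an adjusted p under 0.05, with groups that do not overlap and differ by 1 on the log2 scale, or with knockout libraries on opposite sides of the controls were given in full, and the other lipid genes by library values or range. From each pathway list at most 4 genes that passed were named, and some that passed are not reported here. Adipoq, Plin1, Havcr1, Vil1, Hpx, Serpina1d, Fgg, Fgb, Thrsp, Cyp2a4, Timd2, Odc1, Ppara, Hnf4a and the neighbours of the clusters were named after their values were seen.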

Additional observations from a re-analysis of the deposited data

How the results depend on the processing

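In all, 21 alternatives were run, 5 of them (each library left out together with the genes listed at 0) chosen after seeing the data. Of the 34 tested lipid genes 26 kept their sign in every alternative. The 5 calls (3 higher, 2 lower) became 0 (0 higher, 0 lower) with no filter on low values and 0 (0 higher, 0 lower) with the replicate number as a block, where limma gave 15 and 11 at an unadjusted p under 0.05. They became 10 (4 higher, 6 lower) at an adjusted p under 0.1, and 4 lower where only genes with a mean FPKM of 5 or more were tested. Over the removals of a library the count ran from 0 to 15 (0 to 8 higher, 0 to 9 lower). With genes listed at 0 kept it ran from 0 to 12 (0 to 7 higher, 0 to 5 lower). Leaving those genes out gave 14 (5 higher, 9 lower) without knockout 0 and 15 (8 and 7) without knockout 1, and 1 (0 and 1) without control 1. The cause was not tested. The labels do not say that the same replicate number in both groups marks a pair. Same-numbered libraries deviated from their group means with correlations of 0.0863 and 0.00236 across genes. As 2 knockout libraries deviate as mirror images, these values cannot show or exclude a pairing.

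The 802 calls over all genes (345 higher, 457 lower) became 247 (141 and 106) with no filter, 28 (25 and 3) with the replicate block and 2044 (813 and 1231) at an adjusted p under 0.1. Rescaled to TPM 260 were lower. Over the removals the count ran from 0 to 3029 (0 to 1596 higher, 0 to 1433 lower). With genes listed at 0 kept the range was 36 to 2599 (29 to 1450 higher, 5 to 1149 lower). Leaving those genes out gave 138 (59 and 79) without control 1, 1710 (808 and 902) without knockout 0 and 3029 (1596 and 1433) without knockout 1. The 0 came without control 0 and without control 2, each with the genes listed at 0 left out, where limma gave 2393 and 2147 at an unadjusted p under 0.05. The 10 calls in the 6 pathway lists (5 higher, 5 lower) became 4 (3 and 1) with no filter, 1 (1 and 0) with the replicate block and 29 (10 and 19) at an adjusted p under 0.1. After quantile normalization they were 6, of which 2 lower, and rescaled to TPM 2 were lower. Over the removals they ran from 0 to 31 (0 to 17 higher, 0 to 14 lower), and from 2 to 24 (2 to 14 higher, 0 to 10 lower) with genes listed at 0 kept. Leaving those genes out gave 4 (1 and 3) without control 1 and 26 (14 and 12) without knockout 0.

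The log2 fold change of Fabp3 turned positive after quantile normalization (0.080), rescaled to TPM (0.045) and without control 1 (0.030). That of Rbp4 turned negative at a pseudocount of 0.1 (-0.040), after quantile normalization (-0.11), without control 0 (-0.059), and at -0.0020 both with the replicate block, which cannot use control 2, and without control 2. Over the removals Apoc1 ran from -1.30 to 0.52, Apoh from -1.72 to 0.26, Dgat1 from -0.043 to 0.14, Fabp3 from -0.13 to 0.055, Gpihbp1 from -0.21 to 1.43, Plin2 from -0.30 to 0.63, Plin5 from -0.23 to 0.087 and Rbp4 from -0.42 to 0.45. None of these 8 had passed. The fewest fragments were those of Apoh in knockout 1 and Cidea in knockout 0, at roughly 7 and 4. Other low estimates included 14 for Cidec, 43 for Apoa1 and 61 for Apoc1 in knockout 0. For Fabp1 they were 47, 156 and 51 across controls 0 to 2, so its folds over the control mean are rough as well.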
